A study of Cicer arietinum with 8 samples.

Results

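A group of 250 chickpea loci was defined by its response to salt. These are loci whose transcript level was at least 2-fold higher under salinity than in the control in both root and shoot, and that did not pass the same mark in both organs under desiccation, nor in both organs under cold. They were drawn from 27248 loci that carry annotated gene IDs, among 34193 loci in all. Each seedling library came from the genotype ICC4958 at an age of 10 days, and each treatment lasted 5 h. Salt-stressed seedlings stood in 150 mM NaCl, desiccated seedlings were laid on tissue paper, cold-stressed seedlings stood in water held at 4 ± 1 °C, and controls stood in water. Root and shoot gave 1 library per treatment, 8 in all, so no value has a replicate and no difference between a stress and its control was tested. Whole organs were sequenced, so fewer cells of a type and less RNA per cell cannot be told apart.

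The members were chosen on the salinity, desiccation and cold values themselves, so those values are given as a description. The measure is FPKM, a fragment count scaled by exon length and by the mapped fragments of the library, and a change is the difference of log2(FPKM + 1) between a stressed library and the control of the same organ. A change of 1 is 2-fold on this scale, which understates the change of weakly expressed loci, and a locus is said to rise or fall where its change reached 1 or -1. A member also had to reach 5 FPKM in both salinity libraries, which 10614 annotated loci did. The IDs are not paired with gene names in the files, and 0 of them matched the RefSeq gene table at hand, so neither a gene's role nor an organ marker could be read from them. Of the members, 13 loci carry several IDs and 5 carry an ID that also stands on another locus, where reads could be split or merged.

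Salt in the root medium acts on a plant in ways that are partly shared with water loss. It lowers the water potential around the root, as drying does, and it also brings in sodium and chloride ions, which drying does not. Root cells meet the ions directly, and shoots receive them through the transpiration stream. Abscisic acid is a hormone that accumulates under both salt and water deficit and raises many transcripts under both. Cold has its own signalling through CBF transcription factors, and it shares part of its transcript response with water deficit.

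The response of the 250 loci was not one to salinity alone in the shoot. In desiccated shoot 151 of them (60.4%) were also at least 2-fold above the control, where 9.7% of the 10614 loci with the same salinity level were. In desiccated root 36 of them were at least 2-fold higher, where the share over the 10614 loci was 6.71%. In cold root 23 were higher, beside 6.54% over those loci, and in cold shoot 23 were higher, beside 2.15%. The stresses of an organ share its control library and the rule used these contrasts, so nothing is read from these shares beyond how far the members fit the description of a rise under salt alone. They are therefore called here the loci that rose with salinity in both organs.

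**Figure D1:**
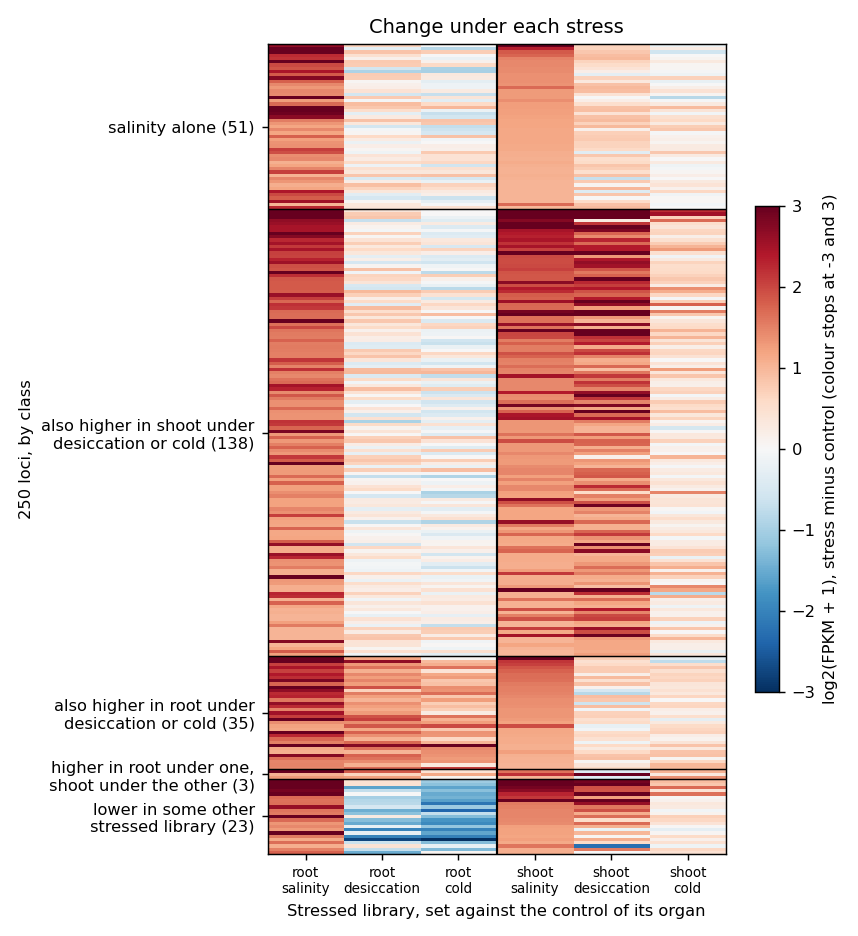
Change in log2(FPKM + 1) of each of the 250 loci (rows) in the 6 stressed libraries (columns), each against the control of its organ, with red for higher and blue for lower. All rows are red in both salinity columns because the rule asked for it, and most of the 138 loci of the second block are red in shoot desiccation as well but pale in root desiccation and root cold.

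The loci split into 5 classes by what they did in the other 4 stressed libraries. A locus with a 2-fold fall in any of these was put in the last class, whatever else it did. In 51 loci (20.4%) no desiccation or cold library lay 2-fold above or below its control. In 138 loci without such a fall (55.2% of the members) a 2-fold rise was also seen in shoot under desiccation or cold, and in root under neither. In 35 loci (14%) it was also seen in root and not in shoot. In 3 loci root rose under one of these stresses and shoot under the other. The last 23 loci (9.2%) were at least 2-fold lower than the control in some desiccation or cold library.

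The salinity change, on which the members were chosen, had a higher median in root than in shoot, and changes over all 10614 loci were also spread wider in root (quartiles -0.52 and 0.60) than in shoot (-0.25 and 0.42). Among the members the change in root ran from 1.01 to 6.64 with a median of 1.71, and in shoot from 1.00 to 5.84 with a median of 1.43. A 4-fold rise was reached by 89 loci in root, by 48 in shoot and by 24 in both, beside 3.85%, 1.46% and 0.594% over the 10614 loci. The change was larger in root for 168 of the 250 loci (67.2%), beside 47.4% over those loci. It was larger in root by at least 2-fold for 45 (18%), beside 10.3%, and larger in shoot by at least 2-fold for 17 (6.8%), beside 11.7%. Over all 10614 loci with the same level, 13.7% rose at least 2-fold in root, 7.35% in shoot and 3.51% in both, which is 373 loci. Root and shoot changes followed each other weakly across the 250 loci (Pearson's r = 0.322, Spearman's rho = 0.198), where the rule cut both at 1.

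**Figure D2:**
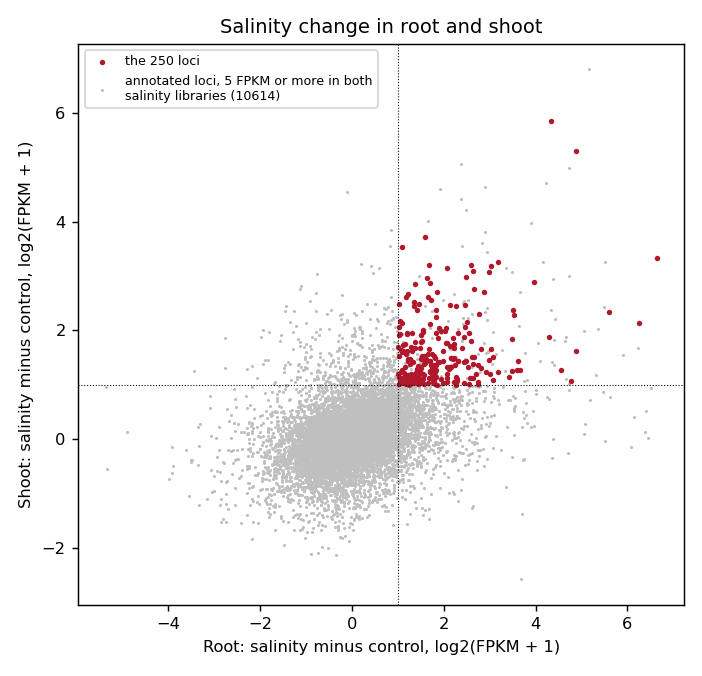
Change in log2(FPKM + 1) under salinity in root (x axis) and shoot (y axis), with 1 point per locus, the 250 loci in red and the 10614 annotated loci with at least 5 FPKM in both salinity libraries in grey. The dotted lines mark a change of 1, and grey points past both lines are the 123 loci that also rose in both organs under desiccation or cold.

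Most members were also expressed in the control libraries. The median level was 64.5 FPKM in salt-stressed root, 20.7 FPKM in desiccated root, 17.6 FPKM in cold root and 15.9 FPKM in control root. In shoot it was 26.4 FPKM under salinity, 23 FPKM under desiccation, 10.7 FPKM under cold and 7.97 FPKM in the control. By these medians the salinity library stood apart from the other 3 in root, while in shoot salinity and desiccation stood together above cold and control. The rule asked for salinity above the control and set aside loci that rose with desiccation in both organs, so this order partly restates the choice. Over the 10614 loci a 2-fold rise was also more frequent in desiccated shoot (9.7%) than in desiccated root (6.71%). In the control at least 5 FPKM was reached by 209 loci in root (83.6%), beside 94.6% over the 10614 loci, and by 177 in shoot (70.8%), beside 95.6%. In either organ 7 loci were under 1 FPKM in the control, and 2 loci were under it in both.

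The locus with the largest rise shared by the organs was Ca_21463. Salt-stressed root had 28.7 FPKM and desiccated root 0.292 FPKM, and the locus was listed at 0 in cold and control root. In shoot it stood at 167 FPKM under salinity, 141 FPKM under desiccation, 18.7 FPKM under cold and 3.27 FPKM in the control. Salinity was thus the 1 root treatment with a clear level, while in shoot every stress lay above the control. Ca_04777 had the same pattern. Its root levels were 19.3 FPKM under salinity and 0.71 FPKM under desiccation, again listed at 0 under cold and in the control. Its shoot levels were 133 FPKM under salinity, 85.5 FPKM under desiccation, 12.3 FPKM under cold and 1.33 FPKM in the control. The shoot change of this locus under salinity, 5.84, was the highest among the members. Both loci belong to the class that also rose in shoot.

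Within that class of 138 loci a shoot rise under desiccation was more frequent than one under cold. In shoot 119 of them rose at least 2-fold under desiccation but not cold, 5 under cold but not desiccation, and 14 under both. Over the 10614 loci 9.7% rose at least 2-fold in desiccated shoot and 2.15% in cold shoot, so the same order held there. The median change in shoot was 1.53 under salinity, 1.70 under desiccation and 0.39 under cold. In root the medians were 1.64 under salinity, 0.26 under desiccation and -0.00 under cold. The class was defined by a rise in shoot, none in root and no fall under desiccation or cold, so the order of these medians restates that choice.

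The most abundant members were of this class as well. Ca_00258 had 2134 FPKM in salt-stressed root, 414 FPKM in desiccated root, 340 FPKM in cold root and 600 FPKM in control root. In shoot it had 665 FPKM under salinity, 679 FPKM under desiccation, 338 FPKM under cold and 128 FPKM in the control. Its root level was thus below the control under desiccation and cold, and its shoot level above the control under every stress. Ca_04555 had 1865 FPKM in salt-stressed root, 817 FPKM in desiccated root, 574 FPKM in cold root and 578 FPKM in control root. In shoot it had 238 FPKM under salinity, 325 FPKM under desiccation, 93.3 FPKM under cold and 31.7 FPKM in the control. For both loci desiccated shoot was at or above salt-stressed shoot.

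The 2 loci whose change was larger in shoot by the widest margin also followed desiccation there. Ca_08176 had 242 FPKM in salt-stressed root, 132 FPKM in desiccated root, 157 FPKM in cold root and 114 FPKM in control root. In shoot it had 158 FPKM under salinity, 333 FPKM under desiccation, 29.7 FPKM under cold and 12.8 FPKM in the control. Its salinity change was 1.08 in root and 3.53 in shoot, and desiccated shoot was its highest library. Ca_08418 had 6.22 FPKM in salt-stressed root, 1.62 FPKM in desiccated root, 1.11 FPKM in cold root and 1.38 FPKM in control root. In shoot it had 35.9 FPKM under salinity, 37.5 FPKM under desiccation, 4.72 FPKM under cold and 1.82 FPKM in the control. Its salinity change was 1.60 in root and 3.71 in shoot.

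**Figure D3:**
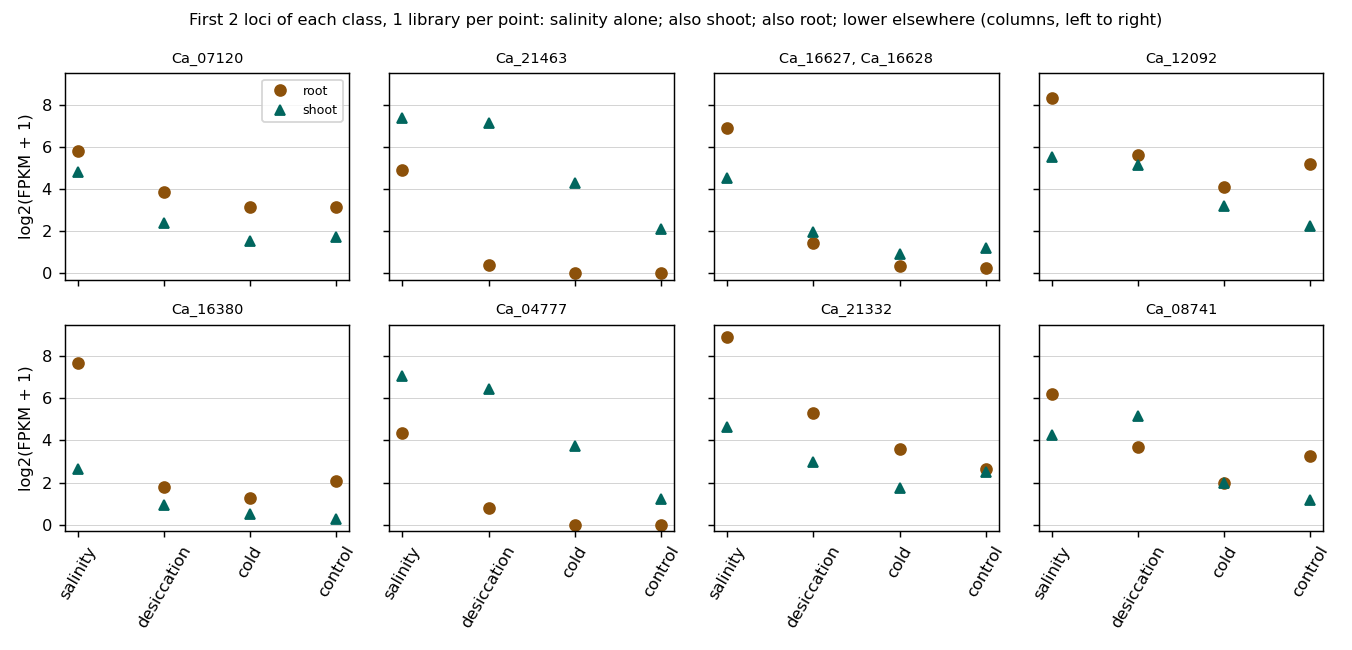
Level on the log2(FPKM + 1) scale (y axis) in salinity, desiccation, cold and control libraries (x axis) of root (circles) and shoot (triangles) for the first 2 loci of the 4 larger classes, with 1 library per point. Salinity is the highest root library for all 8 loci, and desiccation is the highest shoot library for Ca_08741.

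The class with salinity alone had a smaller median shoot change under salinity than the class that also rose in shoot. The other stresses had to stay under 2-fold against the same shoot control, so this may follow partly from the definition. In the class with salinity alone the median change under salinity was 1.79 in root and 1.18 in shoot. Ca_07120 led it, with 54.5 FPKM in salt-stressed root, 13.6 FPKM in desiccated root, 7.83 FPKM in cold root and 7.98 FPKM in control root. In shoot this locus had 26.9 FPKM under salinity, 4.24 FPKM under desiccation, 1.89 FPKM under cold and 2.25 FPKM in the control. Salinity stood well above the other libraries in both organs, with changes of 2.63 in root and 3.10 in shoot. Ca_16380 was next. Root held 201 FPKM of it under salinity, 2.42 FPKM under desiccation, 1.37 FPKM under cold and 3.2 FPKM in the control. Shoot held 5.19 FPKM under salinity, 0.925 FPKM under desiccation, 0.441 FPKM under cold and 0.219 FPKM in the control. Its root change of 5.59 was the largest of the class, and its shoot level only just passed the floor of 5 FPKM.

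In this class the desiccated shoot had a median change of 0.69. A change of 0.5 was reached there by 36 of the 51 loci, beside 24.3% over the 10614 loci, though salinity and desiccation share the shoot control against which the members were chosen. In cold shoot the median was 0.09, in desiccated root 0.26 and in cold root 0.12. Loci with a change under 0.5 in all 4 of these libraries numbered 9 in this class. The limit between this class and the one that also rose in shoot runs through a dense range of values, since 72 of the 250 loci had a shoot desiccation change within 0.25 of the 2-fold mark.

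The 35 loci that also rose in root did so under both desiccation and cold in 21 cases, under desiccation only in 13 and under cold only in 1. Their median root change was 2.22 under salinity, 1.40 under desiccation and 1.25 under cold. A locus that carries the IDs Ca_16627 and Ca_16628 had the largest root rise of all members. It stood at 117 FPKM in salt-stressed root, 1.69 FPKM in desiccated root, 0.26 FPKM in cold root and 0.183 FPKM in control root. In shoot it stood at 22.1 FPKM under salinity, 2.84 FPKM under desiccation, 0.912 FPKM under cold and 1.3 FPKM in the control. It entered this class through a desiccation change of 1.18 in root, beside a salinity change of 6.64, so its level was high under salinity and low in every other library. Since it carries 2 IDs, the value may join more than 1 gene.

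Ca_21332 and Ca_19225 had the widest excess of the root change over the shoot change. Ca_21332 had 480 FPKM in salt-stressed root, 38.7 FPKM in desiccated root, 11.1 FPKM in cold root and 5.28 FPKM in control root, and in shoot 24.1, 6.93, 2.37 and 4.69 FPKM in the same order. Its salinity change was 6.26 in root and 2.14 in shoot. Ca_19225 had 493 FPKM in salt-stressed root, 121 FPKM in desiccated root, 163 FPKM in cold root and 17.1 FPKM in control root. Its shoot levels were 53.8, 38.3, 45.9 and 25.1 FPKM in that order, so its shoot change under salinity, 1.07, was close to the threshold and the shoot libraries lay near each other.

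In the 3 loci of the mixed class root rose under one of desiccation and cold, and shoot under the other. Ca_14397 stood at 282 FPKM in salt-stressed root, 33 FPKM in desiccated root, 11.9 FPKM in cold root and 8.52 FPKM in control root. In shoot it stood at 26.4 FPKM under salinity, 5.84 FPKM under desiccation, 17.4 FPKM under cold and 7.92 FPKM in the control. Here desiccated shoot was below the control while desiccated root was above it. Ca_10082 stood at 27.1 FPKM in salt-stressed root, 20.7 FPKM in desiccated root, 28.8 FPKM in cold root and 12.6 FPKM in control root, and in shoot at 41.3, 120, 10.7 and 8.35 FPKM in that order. Salinity was not its highest library in either organ.

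Of the 23 loci with a fall under another stress, 13 were at least 2-fold lower in cold root alone, 7 in cold and desiccated root, 2 in desiccated root alone and 1 in desiccated shoot. Over all members 20 (8%) fell in cold root, beside 6.29% over the 10614 loci, and 9 (3.6%) fell in desiccated root, beside 5.21%, so the root falls were about as frequent as over all loci. In desiccated shoot 1 member fell, beside 8.25%, and in cold shoot 0 fell, beside 0.254%. A fall in root under cold or desiccation together with a rise in desiccated shoot was seen in 17 members (6.8%), beside 1.33% over the 10614 loci, where 60.4% of all members rose in desiccated shoot. Under the same stress, 5 members were lower in desiccated root and higher in desiccated shoot, beside 0.876% over those loci, and 2 were lower in cold root and higher in cold shoot, beside 0.16%.

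Ca_12092 and Ca_08741 led this class. Ca_12092 had 324 FPKM in salt-stressed root, 48.6 FPKM in desiccated root, 16.1 FPKM in cold root and 35 FPKM in control root. In shoot it had 44.6 FPKM under salinity, 33.9 FPKM under desiccation, 8.08 FPKM under cold and 3.8 FPKM in the control. Cold root was thus its lowest root library, while its shoot was above the control under every stress. Ca_08741 had 74.1 FPKM in salt-stressed root, 12 FPKM in desiccated root, 3.01 FPKM in cold root and 8.47 FPKM in control root. In shoot it had 17.9 FPKM under salinity, 35 FPKM under desiccation, 2.95 FPKM under cold and 1.25 FPKM in the control. For this locus desiccated shoot was the highest shoot library.

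Salinity was then set directly against the other stresses of the same organ, which leaves the control out but keeps the salinity library that chose the members. In root salinity was at least 2-fold above desiccation for 183 of the 250 loci, beside 12.9% over the 10614 loci, and at least 2-fold above cold for 197, beside 13.8%. In shoot it was at least 2-fold above cold for 163 loci, beside 4.97%, but above desiccation for 37, beside 3.81%. The median difference between salinity and desiccation was 1.41 in root and 0.23 in shoot. Between salinity and cold it was 1.70 in root and 1.16 in shoot. By the median, salinity and desiccation thus lay closer together in shoot than in root. Over the 10614 loci their difference was also spread less in shoot (quartiles -0.22 and 0.31) than in root (-0.55 and 0.56), so this is not particular to the members.

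Salinity was below desiccation in shoot for 91 loci, beside 45.7% over the 10614 loci, and below it by at least 2-fold for 12 (4.8%), beside 2.15%. In root it was below desiccation for 5 loci, beside 50.5%, and below cold for 5, beside 51.1%. In shoot it was below cold for 5 as well, beside 44.2%. Salinity was the highest of the 4 root libraries for 243 loci, beside 36.1% over the 10614 loci, and the highest of the 4 shoot libraries for 156, beside 24.1%. Desiccation was the highest shoot library for 90 (36%), beside 33.3%. The choice of members for high salinity values largely sets the counts for salinity.

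**Figure D4:**
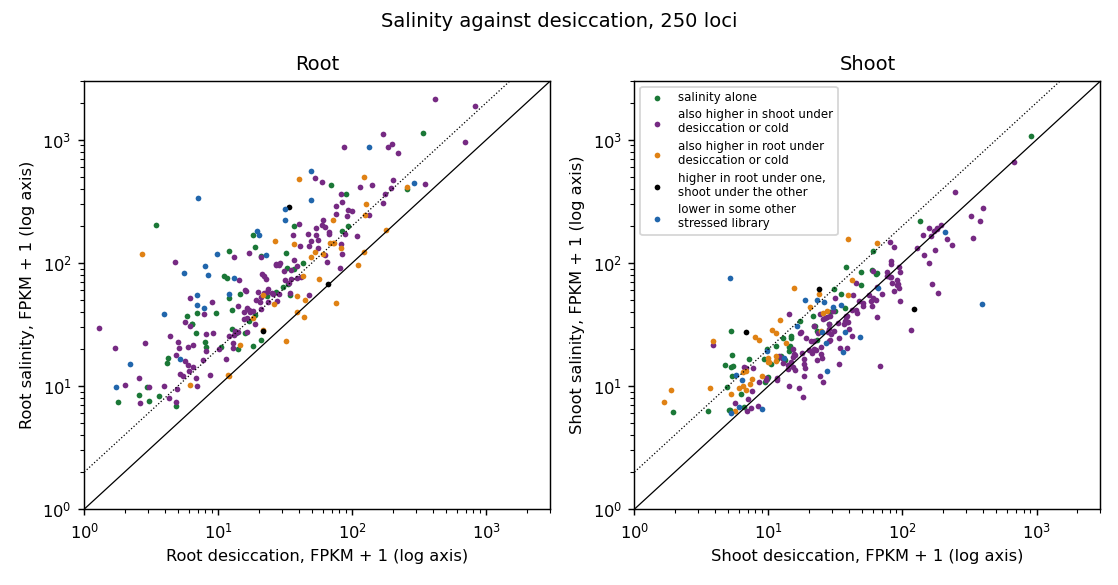
FPKM + 1 under salinity (y axis) against FPKM + 1 under desiccation (x axis), both on log axes, in root (left) and shoot (right), with 1 point per locus coloured by class. The solid line marks equal values and the dotted line 2-fold more under salinity. In root 183 of the 250 loci lie past the dotted line or on it on the log2(FPKM + 1) scale, and in shoot 37.

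Loci that salinity set apart from every other stress in both organs were few. Salinity was at least 2-fold above desiccation and cold in root and in shoot for 17 of the 250 loci, beside 0.292% over the 10614 loci, and above them by any amount for 150 (60%), beside 16.9%. Of the 17, 10 were in the class with salinity alone, 4 in the class that also rose in root, 2 in the class that also rose in shoot and 1 in the class with a fall. The locus of Ca_16627 and Ca_16628 had the widest margin, with salinity at least 2.59 above each other stress on the log2 scale in both organs, followed by Ca_07120 with 1.93.

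The rule set no root level against a shoot level, apart from its floor in both salinity libraries, and this contrast was tested over the 4 treatments. The fit used the same 8 libraries on which the members were chosen, so its counts are not independent of that choice. The limma fit of organ and treatment to 21907 loci called 109 of the 250 members different between root and shoot at an adjusted p under 0.05, beside 36.1% of all loci fitted and 27.5% of the 10614 loci with the members' floor. Higher in root were 79 members (31.6%), beside 15.3% over those 10614 loci, and higher in shoot were 30 (12%), beside 12.2%. Each of the 109 had the same direction in 4 of 4 treatments, which a call in this fit largely requires, so it adds no separate support. The salinity libraries carry the larger root rise that many members have. Without them 88 members were called, 62 higher in root and 26 higher in shoot, beside 22.6%, 12.2% and 10.5% over the loci with the floor. The fit has 3 residual degrees of freedom and takes departures between the organs' responses as error, and nothing in the labels says that the libraries came from separate plants.

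The loci with the largest rise shared by the organs, Ca_21463 and Ca_04777, were higher in shoot. The root minus shoot difference was -3.92 for Ca_21463 (log2, SE 0.76, limma adjusted p = 0.00814) and -3.34 for Ca_04777 (SE 0.67, limma adjusted p = 0.00942). Among the other leading loci, Ca_04555 was higher in root by 2.76 (SE 0.47, limma adjusted p = 0.00465) and Ca_07120 by 1.39 (SE 0.21, limma adjusted p = 0.00308). So were Ca_12092 by 1.79 (SE 0.47, limma adjusted p = 0.0263) and Ca_21332 by 2.14 (SE 0.61, limma adjusted p = 0.0351). Ca_21332 and Ca_08418 were among the loci named by the difference between the organs' salinity changes. The fit used the same salinity libraries, so that choice favours the direction found for each. Ca_08418 had a root minus shoot difference of -1.98 (SE 0.56, limma adjusted p = 0.0346), so it was higher in shoot. This call was lost without the salinity libraries (difference -1.86, limma adjusted p = 0.114), without the desiccation libraries (-1.35, limma adjusted p = 0.0796) and without the cold libraries (-2.16, limma adjusted p = 0.0782), with the direction kept. For Ca_07120 the call was lost without the treatment term (1.39, limma adjusted p = 0.226). Ca_00258, at 2134 FPKM in root and 665 FPKM in shoot under salinity, did not pass, with a difference of 0.80 (SE 0.54, limma adjusted p = 0.309). Root was above shoot in the control too, but the organs were close under cold and shoot was above root under desiccation.

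Some members have ID numbers that follow one another. There were 12 such pairs, which involve 22 loci, and 4 pairs had both loci in the same class. These counts were not set against those over all loci, so nothing is read from them. The files give no positions, so whether these loci are neighbours was not determined. Ca_19225 and Ca_19226 form one of the pairs. Ca_19226 stood at 333 FPKM in salt-stressed root, 6.02 FPKM in desiccated root, 6.1 FPKM in cold root and 20.3 FPKM in control root, where Ca_19225 was raised by all 3 stresses. The pair thus shared the rise under salinity and took opposite directions in root under desiccation and cold. Ca_12091, Ca_12092 and Ca_12093 are consecutive as well, with root salinity changes of 1.21, 3.18 and 2.82 and shoot salinity changes of 2.66, 3.25 and 1.31. These pairs were singled out after their values were seen.

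The members lay near the threshold in many cases. The smaller of the root and shoot salinity changes had a median of 1.28, and it was under 1.1 for 59 of the 250 loci. Just inside stood Ca_14964, with a shoot change of 1.002 (32 FPKM under salinity, 15.5 FPKM in the control), and Ca_14338, with 1.003 (40.4 FPKM under salinity, 19.7 FPKM in the control). Just outside stood Ca_16492, with 0.998 (17.8 FPKM under salinity, 8.41 FPKM in the control), and Ca_18891, with 0.997 (7.36 FPKM under salinity, 3.19 FPKM in the control). With 1 library on each side, loci on either side of the mark cannot be told apart.

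The 123 loci set aside by the rule rose with salinity in both organs and also in both organs under desiccation (107 loci) or cold (52 loci), with 36 under both. The median of the smaller salinity change was 1.28 in the 250 members, against 1.66 in the loci set aside. The latter also had to rise against the same controls under another stress, so the choice itself bears on this contrast. The same rule with the stresses exchanged gave 70 loci for desiccation and 117 for cold. In the other direction, 120 annotated loci with at least 5 FPKM in both controls fell at least 2-fold with salinity in both organs, and 93 of them did not do so in both organs under desiccation or under cold.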

How the data were processed

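Messenger RNA from roots and shoots was sequenced in 8 libraries, grouped by their titles. Per the labels' series text, NGS QC Toolkit served the authors for read filtering, TopHat for mapping to an annotated chickpea genome, Cufflinks for FPKM and Cuffdiff for their own tests. Tool versions, the genome build and the annotation release were not given in the sources used here. The deposited FPKM values scale with exon length and library total, so very abundant transcripts lower all other values. Fragment counts were not recovered. Relative depth, read from the ratios of single-fragment values under 0.3 FPKM, was 1.21 to 1.31 times that of the root control in the other 7 libraries. The sum of FPKM was 1194209 to 1467263 in root and 2457120 to 3343299 in shoot, and 19991 to 20488 loci reached 1 FPKM.

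Changes were computed on log2(FPKM + 1), without a test. A value of 0 can be a failed estimate and is described as listed at 0. Root was tested against shoot with limma 3.58.1 (R 4.3.3; organ and treatment terms, empirical Bayes with a trend, Benjamini-Hochberg adjustment) where the mean over libraries was 1 FPKM or more, a filter that all 250 members passed. Other steps used Python 3.11.15, numpy 2.4.6, pandas 2.3.3 and matplotlib 3.10.9, and the rule and the fit were checked on simulated data. Loci were named by rank: the first 2 by the smaller salinity change overall and in each class, by salinity level, by the difference between the organs' changes in either direction, by the margin over other stresses, and on either side of the threshold. The members, classes and alternatives were chosen with earlier results of these data known. The 448 loci with several IDs and 140 IDs on several loci were kept.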

Additional observations from a re-analysis of the deposited data

Results flagged for a closer look

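Among the 6945 loci without an annotated ID, 53 met the same rule, of 1926 with at least 5 FPKM in both salinity libraries. Of these 53, 21 rose at least 2-fold in desiccated shoot and 10 moved under salinity alone. The shares of such loci among the 1926 were not computed, so nothing is read from these counts. The 53 loci stand outside the 250.

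Root and shoot moved in opposite directions under the same stress in a few members, and this difference was not tested, since each side is 1 library. Under desiccation 5 members were at least 2-fold lower than the control in root and at least 2-fold higher in shoot (2% of members), beside 0.876% of the 10614 annotated loci with at least 5 FPKM in both salinity libraries. Ca_17959 had the deepest root fall of them, to 4.57 FPKM in desiccated root, against 36.8 FPKM in control root, while its shoot stood at 24.2 FPKM under desiccation, against 10.8 FPKM in the control. Under cold 2 members (0.8%) did so, Ca_19226 and Ca_15103, beside 0.16% of those loci. Ca_15103 stood at 16.1 FPKM in cold root, against 47.7 FPKM in control root, and at 15.4 FPKM in cold shoot, against 4.21 FPKM in control shoot. These loci were named after their values were seen.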

How the results depend on the processing

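Of 35 alternatives over 4 counts, 28 stayed within 1.5 times the count reported. The 250 loci became 146 with a pseudocount of 5 (130 of them shared), 24 with a 4-fold rise in salinity, and 12 when every desiccation and cold change had to be under 0.5. With quantile normalization there were again 250 loci, of which 230 were shared. The 51 loci with salinity alone became 2 with a 4-fold rise. With a pseudocount of 5 they were 40, but only 18 were shared, so membership of this class depends on the scale. The 17 loci set apart in both organs became 5 with a pseudocount of 5 and 6 with a 4-fold rise. The 109 members that differed between root and shoot became 66 without the filter, which adds loci with little or no signal to the fit and its adjustment. Leaving out any 1 treatment gave 83 to 119. The share called over all loci fitted moved as well, from 36.1% to 17.9% without the filter and to between 25.3% and 31.2% without 1 treatment. Over 10 alternatives of that fit, Ca_04555 kept its call and Ca_00258 stayed without one, Ca_07120 lost its call in 1 and Ca_08418 in 6, with limma's adjusted p for Ca_08418 from 0.00995 to 0.15. The other named loci were not followed over these alternatives. Among the 250 loci, the number that rose in desiccated shoot was 151, and it ran from 105 with a pseudocount of 5 to 167 with a pseudocount of 0.1.

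The organ fit pairs root with shoot by treatment, and without that pairing it called 74 of the 250 members, beside 36.9% of the 21907 loci fitted. The labels give no replicate numbers, so no replicate block was fitted. The depth of single loci is not known, which limits levels near 5 FPKM most: 43 of the 250 loci were under 10 FPKM in a salinity library.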
